A study of Mus musculus with 18 samples.

Results

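Genes of sterol and fatty acid synthesis were followed by RNA sequencing in mouse bone marrow-derived macrophages, cells grown from marrow in macrophage colony-stimulating factor (M-CSF), after an inflammatory or an IL-4 stimulus and with or without the PI3-kinase gamma catalytic subunit p110g. The genes were chosen by symbol from a list of 34 symbols, of which 33 are among the 16474 genes in the table; Msmo1 is the newer name of Sc4mol, which is present. They comprise 19 genes of the sterol branch, from acetoacetyl-CoA to cholesterol and its carriage inside the cell, 9 genes of the fatty acid branch and 5 regulators. All 33 passed the filter on low values and were tested.

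Marrow came from 8-week-old C57BL/6 mice, either wild type (WT) or p110g-/-, and was kept for 6 days in M-CSF at 50 ng/ml. M-CSF at 20 ng/ml was then present in every group. The M-CSF groups had nothing else and were taken after 24 h, the IFNg/LPS groups also had interferon gamma and lipopolysaccharide (LPS, at 100 ng/ml) for 24 h, and the IL-4 groups had IL-4 at 20 ng/ml over 48 h. There were 6 groups of 3 libraries. The IL-4 groups differed from the M-CSF groups in culture time as well as in the cytokine, and the effects of these cannot be told apart. The labels do not say whether replicate libraries stem from different animals, so p-values measure only the spread between these libraries, which may be technical. In such bulk samples fewer cells of a type and less RNA per cell cannot be told apart.

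Cholesterol is built from acetyl-CoA through mevalonate, isoprenoid diphosphates, squalene and lanosterol, and fatty acids are built from the same acetyl-CoA by carboxylation, chain elongation and desaturation. Most enzymes of both branches are known targets of the SREBP transcription factors, encoded by Srebf1 and Srebf2. SREBPs are carried by Scap from the endoplasmic reticulum to the Golgi for cleavage and held back by Insig1 and Insig2 when sterols are plentiful. In macrophages these lipids serve membrane growth, storage and the handling of engulfed cholesterol.

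The promoters of several genes with large differences are shown as a description. RefSeq's promoter table (GRCm38.p6, 250 bases before to 50 after each start site) held 26 of the 33 genes, 15 in the sterol branch, 6 in the fatty acid branch and all 5 regulators; Fdps, Fdft1, Sqle, Stard4, Scd1, Scd2 and Fads1 had no entry. Both strands were searched for TCACNCCAC, a core of the sterol regulatory element, for CCAAT, the box bound by NF-Y, and for GGGCGG, a box bound by Sp1. The 250 bases before the start site of 3 sterol genes and 3 fatty acid genes, a set chosen after their values were seen, run 5′ to 3′ on the gene's strand, with any TCACNCCAC core or CCAAT box on either strand in capitals:
Hmgcs1 (chr13:119690101-119690350, plus strand): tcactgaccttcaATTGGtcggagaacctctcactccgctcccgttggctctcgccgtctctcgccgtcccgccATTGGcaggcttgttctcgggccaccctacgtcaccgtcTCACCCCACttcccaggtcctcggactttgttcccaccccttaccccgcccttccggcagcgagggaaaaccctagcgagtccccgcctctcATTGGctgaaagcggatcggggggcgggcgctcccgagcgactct
Mvd (chr8:122443423-122443672, minus strand): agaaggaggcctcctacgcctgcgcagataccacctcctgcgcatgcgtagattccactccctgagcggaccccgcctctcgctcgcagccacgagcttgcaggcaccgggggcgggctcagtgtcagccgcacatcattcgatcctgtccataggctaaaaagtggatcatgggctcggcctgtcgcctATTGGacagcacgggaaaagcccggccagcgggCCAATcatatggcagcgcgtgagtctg
Idi1 (chr13:8885356-8885605, plus strand): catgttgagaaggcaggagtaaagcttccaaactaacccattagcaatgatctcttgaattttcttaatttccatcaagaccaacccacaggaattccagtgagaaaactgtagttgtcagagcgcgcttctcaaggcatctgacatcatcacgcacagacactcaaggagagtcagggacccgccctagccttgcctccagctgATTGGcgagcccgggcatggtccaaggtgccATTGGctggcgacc
Fasn (chr11:120824548-120824797, minus strand): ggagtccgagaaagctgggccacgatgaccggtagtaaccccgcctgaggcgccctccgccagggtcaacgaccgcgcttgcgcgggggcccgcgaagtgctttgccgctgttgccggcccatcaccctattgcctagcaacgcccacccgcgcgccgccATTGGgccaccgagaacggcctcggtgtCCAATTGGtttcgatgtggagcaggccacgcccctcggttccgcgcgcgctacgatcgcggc
Elovl6 (chr3:129532136-129532385, plus strand): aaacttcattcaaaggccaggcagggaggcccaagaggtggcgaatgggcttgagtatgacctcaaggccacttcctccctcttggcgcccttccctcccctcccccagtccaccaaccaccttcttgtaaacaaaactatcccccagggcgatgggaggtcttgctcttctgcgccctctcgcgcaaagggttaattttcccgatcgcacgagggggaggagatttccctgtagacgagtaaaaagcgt
Fads2 (chr19:10101504-10101753, minus strand): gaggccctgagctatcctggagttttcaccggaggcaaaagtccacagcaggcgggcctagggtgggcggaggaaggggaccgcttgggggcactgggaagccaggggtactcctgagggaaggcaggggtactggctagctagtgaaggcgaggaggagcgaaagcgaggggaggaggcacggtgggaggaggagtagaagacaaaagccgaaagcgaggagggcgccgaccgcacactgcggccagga

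In Hmgcs1, which makes the precursor of mevalonate, the core began 137 bases before the start site, and it was the single gene of the 26 with that core; 1.44% of the 27025 genes in the table held it. A CCAAT box was found in 21 of the 26 genes, 14 of 15 in the sterol branch, 3 of 6 in the fatty acid branch and 4 of 5 regulators, beside 41.1% of all genes. GGGCGG was found in 22 of the 26, 14 of 15 sterol genes, 3 of 6 fatty acid genes and all 5 regulators, beside 38.2% of all genes. Mvd and Idi1 each held 2 CCAAT boxes near the start site, and Fasn held 3, of which 2 share bases. Elovl6 and Fads2 held none. These matches describe the letters in a fixed window and show no binding.

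The libraries held 40.1 M to 69.6 M reads, so that 3 reads correspond to a normalised signal of 2.15 to 4.74, and all values below are this depth-scaled signal. Pik3cg, the gene of p110g, had a lower signal in p110g-/- than in WT libraries under M-CSF (1888 to 2046 against 4994 to 5330) and IL-4 (956 to 1083 against 2953 to 3280.5), but the library labelled p110g-/- IFNg/LPS 1 had 3691, above all 3 WT IFNg/LPS libraries (2309 to 3560). H60a, chosen after its values were seen, was at 2546 in that library, beside 2576 and 2937 in the other p110g-/- IFNg/LPS libraries and 133 to 145 in the WT ones. Of 10 macrophage marker symbols 9 were in the table, all detected, with a summed signal of 472600 to 1066000. Adgre1, the symbol not found, is the newer name of Emr1, which is present. The macrophage sum was lowest with IL-4, where 7 of 9 fell in WT and 6 of 9 in p110g-/-, beside 21.1% and 21.2% of all genes. Summed signals of other cell types' markers ran from 1041 to 32170 for neutrophils (8 genes), 216 to 3323 for fibroblasts (6 genes), 164 to 1060 for dendritic cells (5 genes), 44.5 to 617 for B cells (4 genes), 6.3 to 38.5 for T and NK cells (2 genes) and 0 to 208 for adipocytes (Adipoq alone).

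**Figure D1:**
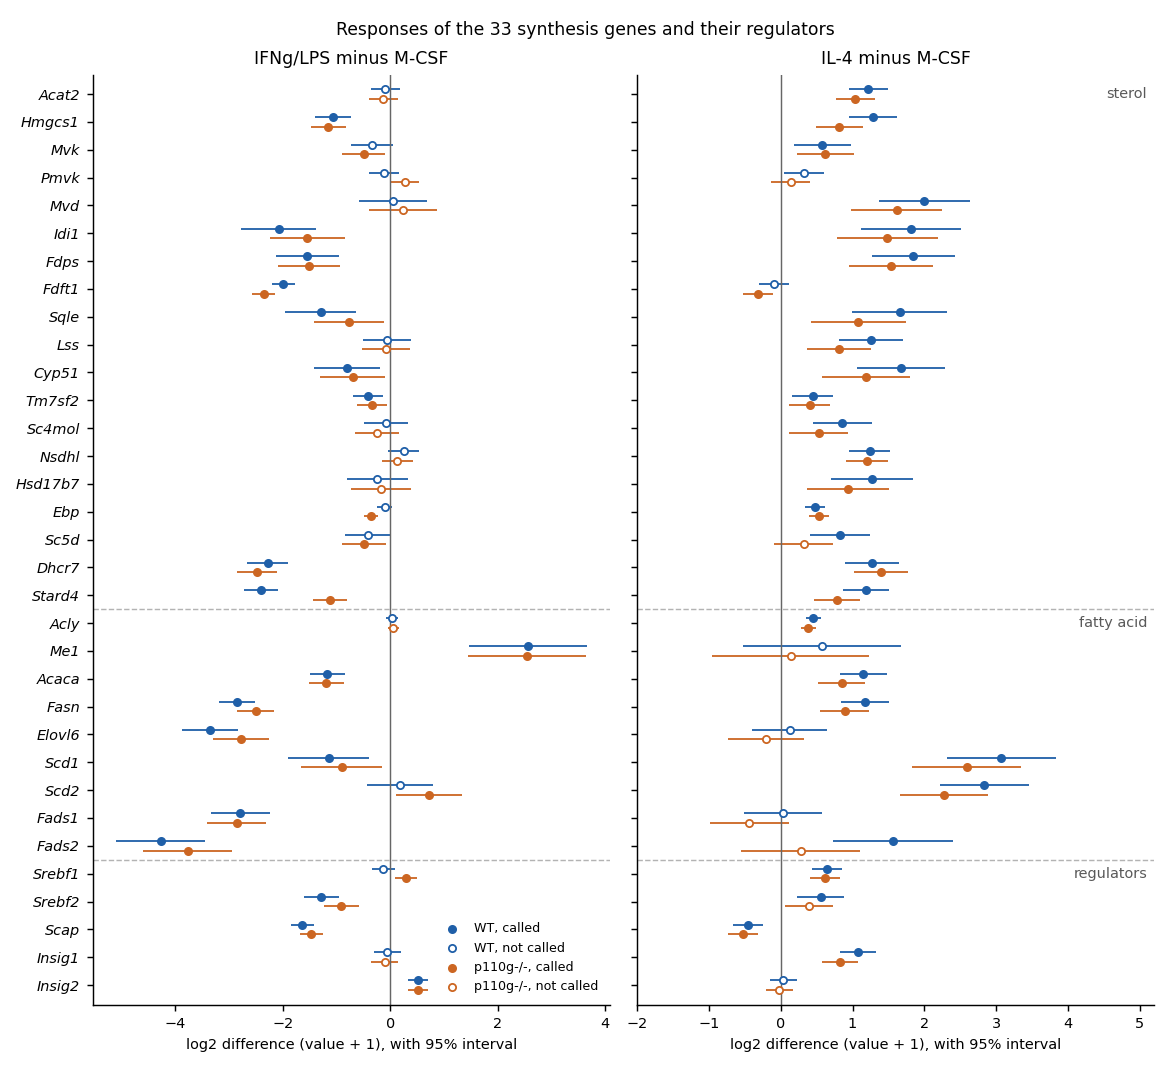
Log2 difference from M-CSF for each of the 33 genes with IFNg/LPS and with IL-4, in WT and p110g-/- macrophages, grouped as sterol branch, fatty acid branch and regulators, with 95% intervals and filled points for genes called. IL-4 values lie mostly above 0 in both branches, and the lowest IFNg/LPS values are those of Fads2, Elovl6, Fasn and Fads1.

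One comparison asked how the inflammatory stimulus changed these genes. In WT macrophages 17 of the 33 genes fell with IFNg/LPS and 2 rose, where 37.5% of all 15627 genes tested fell and 36.3% rose. The fatty acid branch had the lowest values: 6 of its 9 genes fell, 1 rose, and its median log2 difference was -1.17. In the sterol branch 9 of 19 fell and 0 rose, with a median of -0.41, and among the regulators 2 of 5 fell and 1 rose, with a median of -0.12; over all genes the median was -0.01. The stimulus groups of both kinds are set against the same M-CSF libraries.

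Among the fatty acid enzymes the desaturase Fads2, which acts on polyunsaturated fatty acids, went furthest down. Its signal was 231, 271 and 146 in the WT M-CSF libraries and 10.3, 8.4 and 11.1 with IFNg/LPS, a 19.3-fold lower level on the log2(signal + 1) scale (log2 -4.27, SE 0.39, adjusted p = 7.5e-08 by limma with Benjamini-Hochberg adjustment, as for all adjusted p-values here). Both groups were well apart, though the 3 stimulated libraries rested on few reads, as few as 7.

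Elovl6, which elongates palmitate, was at 184, 191 and 147 in M-CSF and at 20.7, 20.5 and 9.5 with IFNg/LPS, 10.2-fold lower (adjusted p = 6e-09), with 6 reads in its lowest library. Fasn, the fatty acid synthase, was at 2009, 1920 and 1751.5 in M-CSF and at 218.5, 272 and 298.5 with IFNg/LPS, 7.23-fold lower (log2 -2.85, SE 0.16, adjusted p = 2.6e-10). Fads1, the other polyunsaturated fatty acid desaturase of the list, was at 5770, 6167 and 5612 in M-CSF and at 515, 1085 and 1068 with IFNg/LPS, 6.93-fold lower (adjusted p = 8.4e-08). In these 3 genes, as in Fads2, every stimulated library lay below every M-CSF library.

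Smaller falls were measured for Acaca, the acetyl-CoA carboxylase that commits carbon to fatty acids (log2 -1.17, SE 0.15, adjusted p = 4.2e-06), and for the stearoyl-CoA desaturase Scd1 (log2 -1.15, SE 0.36, adjusted p = 0.0089). Its close relative Scd2 and the citrate lyase Acly, which supplies acetyl-CoA to both branches, did not pass the test, at log2 0.18 and 0.03. How reads shared between such relatives were counted is not given in the sources used here, so the split between Scd1 and Scd2, and between Fads1 and Fads2, is uncertain.

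Malic enzyme Me1, a source of NADPH for lipid synthesis, moved the other way. It was at 326.5, 187 and 142 in WT M-CSF libraries and at 1174, 1044 and 1462 with IFNg/LPS, 5.89-fold higher (log2 2.56, SE 0.52, adjusted p = 0.00034). In p110g-/- the change was 5.87-fold (adjusted p = 0.00035), and in both genotypes the groups did not overlap.

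In the sterol branch the falls were spread along the pathway. Stard4, a carrier that moves cholesterol between membranes, had 783, 532 and 478.5 in M-CSF and 114, 108 and 107 with IFNg/LPS, 5.28-fold lower (log2 -2.40, SE 0.15, adjusted p = 9.5e-10). Dhcr7, the reductase of the final step to cholesterol, had 1593, 1341 and 1538 in M-CSF and 232, 332 and 366 with IFNg/LPS, 4.87-fold lower (adjusted p = 1.1e-08). Neither gene's groups overlapped.

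Idi1, which makes dimethylallyl diphosphate, had 1820, 910 and 863 in M-CSF and 309, 243 and 251 with IFNg/LPS, 4.22-fold lower (adjusted p = 3.2e-05). Fdft1, the squalene synthase, had 6855, 7483 and 7651 in M-CSF and 1681.5, 2003 and 1846 with IFNg/LPS, 3.98-fold lower (adjusted p = 7.1e-11). In the GENCODE M21 annotation 20.9% of the exon bases of Fdft1 lie opposite exons of Ctsb, whose signal went from 957282 to 1044950 in WT M-CSF libraries to 706813 to 821252 with IFNg/LPS, and since the strand used in counting is not given, reads from these overlapping exons cannot be told apart.

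The other sterol genes that fell in WT were the farnesyl diphosphate synthase Fdps (log2 -1.54), the squalene epoxidase Sqle (log2 -1.29), the synthase Hmgcs1 (log2 -1.06), the lanosterol demethylase Cyp51 (log2 -0.81) and the sterol reductase Tm7sf2 (log2 -0.41). The remaining 10 sterol genes had no call, among them Mvk, Pmvk and Mvd, which turn mevalonate into isopentenyl diphosphate, and Lss, the lanosterol synthase. Sc5d, a sterol desaturase, missed the threshold (adjusted p = 0.062) and passed it with the library number as a block (adjusted p = 0.021). Cyp51 lost its call without WT M-CSF library 1 (adjusted p = 0.098), WT IFNg/LPS library 2 (0.066) or library 3 (0.081), and Tm7sf2 lost it without WT M-CSF library 1 (0.074). Of the exon bases of Fdps 77.4% are shared with Gm43738 on the same strand, a gene with no row of its own in the table, so those reads cannot be assigned to Fdps alone.

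**Figure D2:**
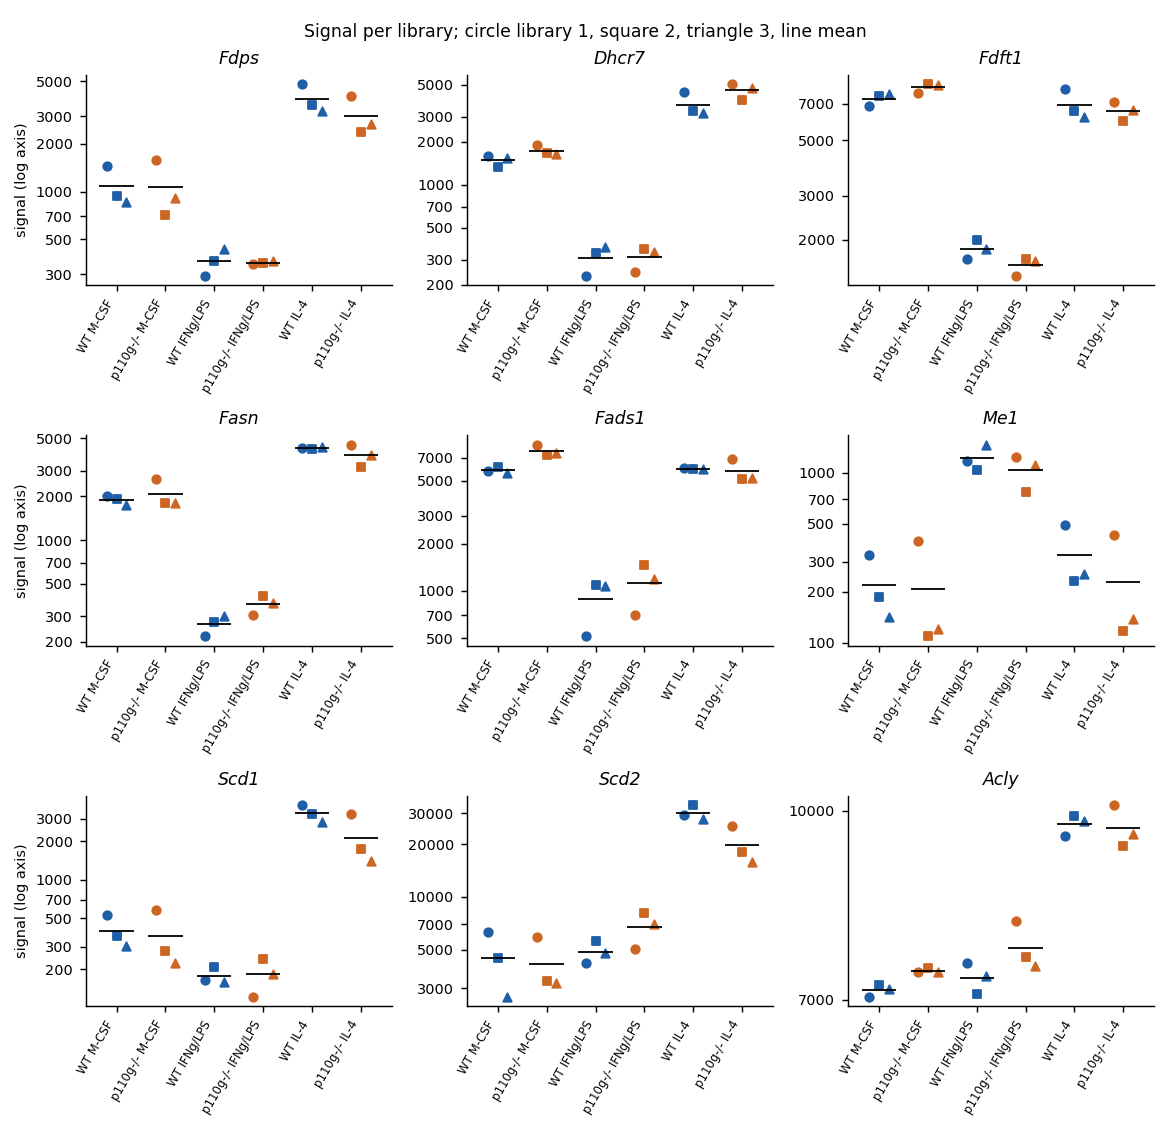
Signal per library on a log axis for Fdps, Dhcr7 and Fdft1 of the sterol branch and for Fasn, Fads1, Me1, Scd1, Scd2 and Acly of the fatty acid branch, by genotype (WT blue, p110g-/- orange) and stimulus, with lines at the group means. Fasn lies at 218.5 to 410 in the 6 IFNg/LPS libraries and at 1751.5 or more in the other 12, Me1 is highest with IFNg/LPS, and Scd1 lies at 1403 to 3830 in the 6 IL-4 libraries.

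The 5 regulators did not move as a block. Scap, the escort of SREBPs, went from 2344, 2258.5 and 2500.5 to 651, 784 and 862 (log2 -1.64, SE 0.10, adjusted p = 5.4e-10), and Srebf2, which encodes the SREBP of the sterol branch, went from 5937, 4667 and 4397 to 1955, 1946 and 2220.5 (log2 -1.28, SE 0.15, adjusted p = 1.8e-06). Insig2 rose from 1535, 1547 and 1531 to 2470, 2148 and 2023 (log2 0.52, SE 0.09, adjusted p = 7e-05), a call lost with libraries scaled to equal totals (adjusted p = 0.88). Srebf1, for which the isoforms cannot be told apart, and Insig1 had no call in WT, at log2 -0.12 for Srebf1.

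In p110g-/- macrophages 20 of the 33 genes fell with IFNg/LPS and 4 rose, beside 36.8% and 36.2% of all genes. Of the sterol genes 12 fell and 0 rose (median log2 -0.48), of the fatty acid genes 6 fell and 2 rose (median -1.19), and of the regulators 2 fell and 2 rose (median -0.10). The lowest values belonged again to Fads2 (log2 -3.77), Fads1 (-2.86), Elovl6 (-2.78) and Fasn (-2.51), followed by Dhcr7 (-2.48) and Fdft1 (-2.35). Stard4 fell by 1.12 on the log2 scale (SE 0.15, adjusted p = 6.2e-06), from 1421, 1093 and 1050 to 536, 511 and 583.

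Mvk (log2 -0.49), Sc5d (-0.48) and the sterol isomerase Ebp (-0.36) were called lower in p110g-/- and not in WT, and Scd2 (0.73, adjusted p = 0.033) and Srebf1 (0.29, adjusted p = 0.014) were called higher; none of these 5 differences between genotypes passed the test of the interaction. Of the 24 calls 16 held when any 1 library was left out. Those of Mvk, Sqle, Cyp51, Tm7sf2, Sc5d, Srebf1, Scd1 and Scd2 did not, and the most damaging single omissions were p110g-/- M-CSF library 1 for Sqle, Cyp51 (adjusted p = 0.23 for each), Scd1 (0.20) and Sc5d (0.18), the library labelled p110g-/- IFNg/LPS 1 for Mvk (0.14) and Tm7sf2 (0.13), p110g-/- M-CSF library 2 for Srebf1 (0.077) and library 3 for Scd2 (0.13). Pmvk, not called (adjusted p = 0.073), passed with the library number as a block (0.041).

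With libraries 2 and 3 only, the sterol genes counted 2 higher and 9 lower in WT (median log2 -0.21), Mvd (0.43, adjusted p = 0.0058) and Nsdhl (0.47, 3.1e-05) being higher, and 3 higher and 11 lower in p110g-/- (median -0.35), with Mvd (0.78), Nsdhl (0.23) and Hsd17b7 (0.30) higher. All genes were then called higher in 36.4% and lower in 37.4% in WT, and in 36.5% and 37% in p110g-/-.

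The count of falls depended on the scaling. The summed signal of all genes was 60.75 M to 67.6 M in the IFNg/LPS libraries and 45.72 M to 49.67 M in the others. With libraries scaled to equal totals the median of all genes lay at log2 -0.51 in WT and -0.41 in p110g-/-. Of the 33 genes 28 then fell and 1 rose in WT, and 25 fell and 1 rose in p110g-/-. Of all 15627 genes tested 8923 fell and 3147 rose in WT, and 8282 fell and 3518 rose in p110g-/-. Calls over all genes were then 26.1% higher in place of 49.2% in WT, and 29.8% in place of 49.6% in p110g-/-. Me1 was the gene that still rose in both, and in p110g-/- the rises of Scd2 and Srebf1 (adjusted p = 0.33 for each, Srebf1 with the opposite sign) and of Insig2 (0.22) lost their calls. Of 18 cell cycle genes 17 fell in WT (median log2 -2.99) and 18 in p110g-/- (median -2.26), beside 37.5% and 36.8% of all genes. Of 10 handling stress genes 5 rose in each genotype, beside 36.3% and 36.2% of all genes, and 1 fell in p110g-/-. Neutrophil markers fell in 6 of 8 genes in WT (median log2 -4.04) and in 7 of 8 in p110g-/- (median -4.36), and 1 of 8 rose in each genotype. Their mean sum went from 16380 to 2610 in WT and from 16120 to 1414 in p110g-/-. For all 3 lists their part in the result was not tested.

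Another comparison asked how IL-4 changed the same genes. In WT macrophages 26 of the 33 genes rose and 1 fell, where 22.9% of all genes rose and 21.1% fell. In the sterol branch 17 of 19 rose and 0 fell (median log2 1.24), in the fatty acid branch 6 of 9 rose and 0 fell (median 1.15), and of the regulators 3 rose and 1 fell (median 0.56), while the median of all genes was 0.00. With libraries scaled to equal totals the member counts were the same, 26 higher and 1 lower, beside 2754 and 4008 of all genes. The higher share of calls over all genes was then 40.7% in place of 52.1%.

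The largest rises were in the desaturases that make monounsaturated fatty acids. Scd1 had 535, 363.5 and 303 in the WT M-CSF libraries and 3830, 3277 and 2808.5 with IL-4, 8.40-fold higher (log2 3.07, SE 0.36, adjusted p = 7.2e-06). Scd2 had 6332, 4498 and 2691 in M-CSF and 29584, 33469 and 28036 with IL-4, 7.13-fold higher (log2 2.83, SE 0.29, adjusted p = 2e-06). In both genes every IL-4 library lay far above every M-CSF library.

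Fads2, low with IFNg/LPS, rose with IL-4 to 637, 633 and 588 (log2 1.56, SE 0.39, adjusted p = 0.0045), and Fasn, at 4269, 4195 and 4336, and Acaca, at 2714, 2514 and 2539, rose by log2 1.17 (adjusted p = 3.4e-05) and 1.15 (2.7e-05). Acly rose by log2 0.45 (SE 0.05, adjusted p = 4.5e-06). Elovl6 (log2 0.12), Fads1 (0.03) and Me1 (0.58) were the 3 fatty acid genes with no call. Me1 ranged from 232 to 495 with IL-4 and from 142 to 326.5 without, so its groups overlapped.

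In the sterol branch rises were measured from the thiolase at its head to the reductase of its final step, with Pmvk and Fdft1 as the exceptions. Mvd, which decarboxylates mevalonate diphosphate, had 648, 418.5 and 383 in M-CSF and 2425, 1611 and 1703 with IL-4, 3.99-fold higher (log2 2.00, SE 0.30, adjusted p = 7.6e-05). Fdps had 1445, 937 and 857 in M-CSF and 4782.5, 3521 and 3218.5 with IL-4, 3.60-fold higher (adjusted p = 7.3e-05). Idi1 had 4601, 3761 and 3564 with IL-4, 3.51-fold above its M-CSF level (adjusted p = 0.00042).

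Further along, Cyp51 rose by log2 1.68, Sqle by 1.66, Hsd17b7 by 1.27, Dhcr7 by 1.27, Lss by 1.26 and Nsdhl by 1.24, all enzymes between squalene and cholesterol. Hmgcs1, at 10597, 8347 and 7776 with IL-4 against 4208, 3420.5 and 3302, rose by log2 1.28 (SE 0.15, adjusted p = 1e-05), Acat2, the thiolase at the head of the branch, by 1.22 (2.5e-06) and Stard4 by 1.19 (1.7e-05). Smaller rises were those of Sc4mol (0.86), Sc5d (0.83), Mvk (0.58), Ebp (0.48) and Tm7sf2 (0.45).

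Fdft1 stood apart from its neighbours in the pathway, with 8030, 6509 and 6214 under IL-4 against 6855, 7483 and 7651 under M-CSF, overlapping ranges and no call (log2 -0.09). Ctsb, whose exons lie opposite, was at 804648 to 1011380 in the WT IL-4 libraries. Pmvk, the phosphomevalonate kinase, was the other sterol gene with no call (log2 0.33, adjusted p = 0.052), and it passed with the library number as a block (adjusted p = 0.026). Mvk and Tm7sf2 lost their calls without WT IL-4 library 1 (adjusted p = 0.091 and 0.059), without WT M-CSF library 2 (0.057 and 0.058) and without WT M-CSF library 3 (0.056 and 0.062).

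Of the regulators Insig1, itself a sterol-responsive gene, rose from 2725, 2232 and 2097 to 5123, 5067 and 4612 (log2 1.08, SE 0.12, adjusted p = 4.1e-06). Srebf1 rose by log2 0.65 (adjusted p = 9.1e-05) and Srebf2 by 0.56 (0.0089). Scap fell by 0.45 on the log2 scale, to 1766, 1682 and 1737 (adjusted p = 0.0016), and Insig2 had no call, at 1571 to 1585 against 1531 to 1547.

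In p110g-/- macrophages 23 genes rose with IL-4 and 2 fell, beside 22.7% and 21.2% of all genes. In the sterol branch 16 rose and 1 fell (median log2 0.82), in the fatty acid branch 5 rose and 0 fell (median 0.39), and of the regulators 2 rose and 1 fell (median 0.39). Scd1 (log2 2.59), Scd2 (2.28), Mvd (1.61), Fdps (1.54), Idi1 (1.49) and Dhcr7 (1.40) had the largest rises, and Scap (-0.53) and Fdft1 (-0.32) fell. Fads2, at 970, 348 and 358 against 687, 321 and 307 in M-CSF, had no call (log2 0.28), nor had Sc5d (0.32).

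Of the 25 calls in p110g-/- 19 held when any 1 library was left out. Those of Mvk, Sqle, Tm7sf2, Sc4mol and Hsd17b7 ended, among others, without p110g-/- IL-4 library 1 (adjusted p = 0.064, 0.062, 0.071, 0.16 and 0.054), and that of Fdft1 without p110g-/- IL-4 library 2 (0.083). Srebf2 (adjusted p = 0.051) passed with the library number as a block (0.033). All 18 cell cycle genes rose with IL-4 (median log2 1.04 in WT and 2.08 in p110g-/-), beside 22.9% and 22.7% of all genes. Adipoq, the 1 adipocyte marker in the table, was at 65.9 to 101 in the WT IL-4 libraries, against 0 in WT M-CSF. In the p110g-/- IL-4 libraries Adipoq was at 146 to 208. The part of the cell cycle genes and of Adipoq in the result was not tested.

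**Figure D3:**
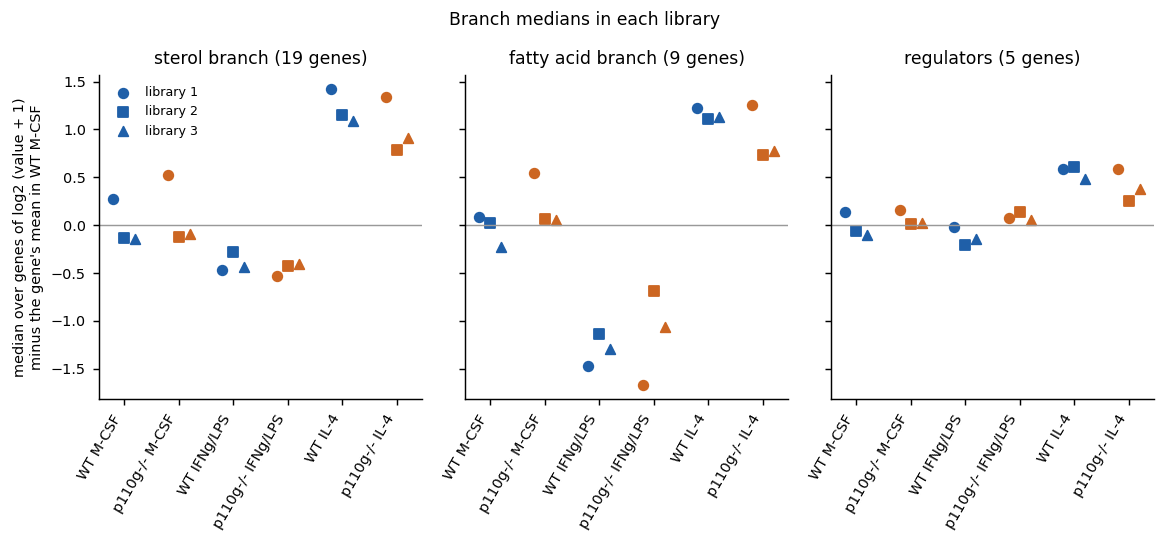
Median log2 signal of the 19 sterol genes, the 9 fatty acid genes and the 5 regulators in each library, relative to the mean of the WT M-CSF libraries (WT blue, p110g-/- orange). The fatty acid genes lie at -1.67 to -0.68 in the 6 IFNg/LPS libraries and the sterol genes at -0.53 to -0.28, while with IL-4 they lie at 0.73 to 1.26 and 0.78 to 1.42.

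Side by side, the branches had similar medians with IL-4 in WT. With IL-4 in p110g-/- the median difference from p110g-/- M-CSF was log2 0.82 for the sterol genes and 0.39 for the fatty acid genes. The branches also differed with IFNg/LPS, where the median of the fatty acid genes was lower than that of the sterol genes in each of the 6 libraries. Within the fatty acid branch the genes spread widely, from Fads2 at log2 -4.27 to Me1 at 2.56 with IFNg/LPS in WT; within the sterol branch they ran from Stard4 at -2.40 to Nsdhl, a demethylating dehydrogenase, at 0.25. Acly, Elovl6, Fads1 and Me1 were the fatty acid genes whose IL-4 differences in WT were below log2 1. These spreads are given as descriptions, and no test of a difference between the branches was made.

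The library numbered 1 stood above the other 2 in many of these genes. It was the highest of 3 for 18 of 19 sterol genes in WT M-CSF, WT IL-4 and p110g-/- IL-4 and for 14 of 19 in p110g-/- M-CSF, but for 4 and 5 of 19 in the WT and p110g-/- IFNg/LPS groups; over all genes it was the highest in 35.9% to 39.4%. Idi1 in p110g-/- M-CSF, at 2085 against 852 and 1008, and Me1 in p110g-/- IL-4, at 429 against 117 and 137, show the size of this gap. In the same groups library 1 had a neutrophil marker sum of 32170 (WT M-CSF), 21730 (WT IL-4), 26150 (p110g-/- M-CSF) and 9243 (p110g-/- IL-4), against 4625 to 12220 in libraries 2 and 3, and fibroblast marker sums of 2314, 1024, 3323 and 1197 against 216 to 1686. In p110g-/- IL-4 library 3, at 1293, had more fibroblast signal than library 1. For both lists their part in the result was not tested.

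The comparison of genotypes asked how these genes differed between p110g-/- and WT within each stimulus. Loss of p110g and any other genetic difference between WT and p110g-/- mice cannot be told apart here, and the latter was not tested. H60a was at 62 to 64 in WT and 3214 to 3752 in p110g-/- libraries under M-CSF. With IL-4 it was at 78 to 102 and 3743 to 4317. Under M-CSF 1 of the 33 genes was higher in p110g-/- and 0 were lower, beside 1.06% and 1.27% of all genes. With IFNg/LPS 4 were higher and 1 was lower (6.94% and 7.79% of all genes), and with IL-4 1 was higher and 0 were lower (1.34% and 1.99%). Averaged over the stimuli 1 was higher and 0 were lower (5.29% and 6.52%). Stard4 was the gene called in all of these. Fibroblast markers moved with the genotype: all 6 had positive differences under M-CSF (median log2 1.40, 1 called higher) and IL-4 (1.15, 0 called), and 2 were called higher on average. Of 9 macrophage markers 2 were called higher and 4 lower with IFNg/LPS. All 18 cell cycle genes had negative differences under M-CSF (median log2 -0.80, 0 called). Their interaction was positive for 17 of 18 with IFNg/LPS (median 0.69, 1 called higher, beside 1.02% of all genes). With IL-4 the interaction was positive for 17 of 18 (median 0.97, 0 called). The part of these lists in the result was not tested.

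**Figure D4:**
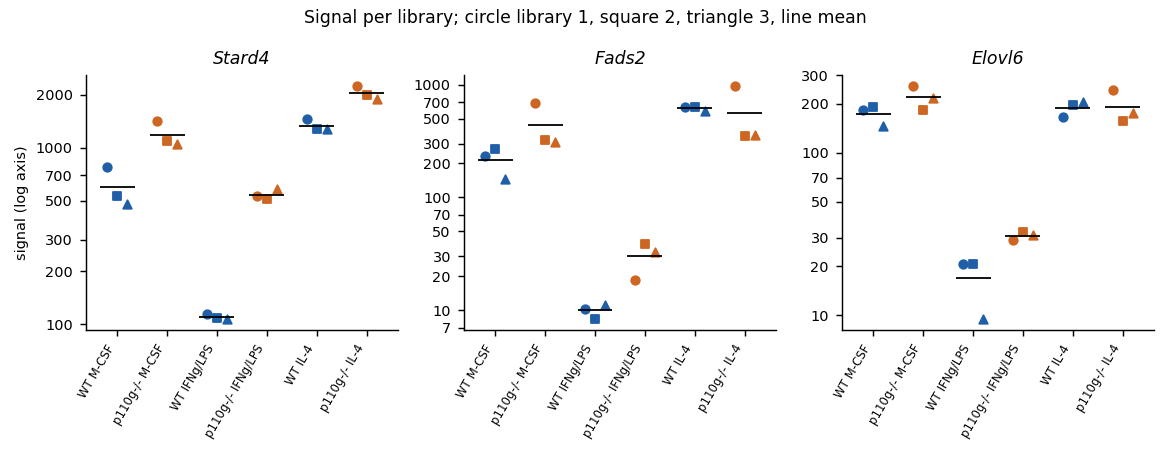
Signal per library on a log axis for Stard4, Fads2 and Elovl6 by stimulus and genotype (WT blue, p110g-/- orange), with lines at the group means. The p110g-/- libraries lie above the WT libraries for Stard4 under every stimulus, at 1050 to 1421 against 478.5 to 783 in M-CSF, 511 to 583 against 107 to 114 with IFNg/LPS and 1882 to 2236 against 1276.5 to 1450.5 with IL-4, and for Fads2 and Elovl6 with IFNg/LPS.

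Under M-CSF Stard4 was at 783, 532 and 478.5 in WT and at 1421, 1093 and 1050 in p110g-/-, 2.01-fold higher (log2 1.01, SE 0.15, 95% interval 0.69 to 1.33, adjusted p = 0.00093). With IFNg/LPS it was at 114, 108 and 107 in WT and at 536, 511 and 583 in p110g-/-, 4.91-fold higher (log2 2.29, SE 0.15, adjusted p = 8.9e-08). With IL-4 it was at 1450.5, 1276.5 and 1286 in WT and at 2236, 1982 and 1882 in p110g-/-, 1.52-fold higher (log2 0.60, SE 0.15, adjusted p = 0.039). The genotypes did not overlap under any stimulus.

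Averaged over the stimuli the Stard4 difference was 2.47-fold (log2 1.30, SE 0.09, adjusted p = 4.6e-08), and it held when any of the 18 libraries was left out. The M-CSF difference held in all 6 omissions (adjusted p = 4.5e-05 to 0.0079) but not in a fit of the 6 M-CSF libraries alone (0.087). The IFNg/LPS difference held in all 6 (8.1e-07 to 1.9e-06), and without the library labelled p110g-/- IFNg/LPS 1 it was log2 2.30 (1e-06). The IL-4 difference was lost in 5 of 6 omissions: without WT IL-4 library 2 (0.14) or 3 (0.16), and without p110g-/- IL-4 library 1 (0.094), 2 (0.12) or 3 (0.087).

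With IFNg/LPS, where the library labelled p110g-/- IFNg/LPS 1 has Pik3cg above the WT libraries, Fads2 was at 18.6, 38.9 and 33.1 in p110g-/- against 10.3, 8.4 and 11.1 in WT, 2.75-fold higher (log2 1.46, SE 0.39, adjusted p = 0.02). Elovl6 was at 29.1, 32.3 and 31.2 against 20.7, 20.5 and 9.5, 1.87-fold higher (log2 0.91, SE 0.25, adjusted p = 0.022). Srebf1 was at 4096, 4077 and 3450 against 3285, 2879 and 3007 (log2 0.34, SE 0.10, adjusted p = 0.03), and Ebp was lower, at 1335, 1361 and 1272 against 1416, 1585 and 1704 (log2 -0.24, SE 0.07, adjusted p = 0.02). None of these 4 pairs of groups overlapped, but nor did those of some members with no call, such as Sqle, Srebf2 and Fdft1. The share of all genes without overlap was not counted.

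Each of these 4 calls was lost on the omission of any of several single libraries, while the differences kept their sign. Fads2 lost its call without WT library 2 (adjusted p = 0.071) or p110g-/- library 2 (0.094) or 3 (0.063), and Elovl6 without WT library 3 (0.082, log2 0.56) or p110g-/- library 2 (0.072) or 3 (0.054). Srebf1 lost it without WT library 2 (0.11) or 3 (0.079), without the library labelled p110g-/- 1 (0.081) or p110g-/- library 2 (0.11), and Ebp without WT library 2 (0.066) or 3 (0.091) or p110g-/- library 3 (0.07). Without the library labelled p110g-/- IFNg/LPS 1, Fads2 was log2 1.76 (0.0099), Elovl6 0.95 (0.034) and Ebp -0.25 (0.033). With edgeR on the recovered reads Fads2 (0.13) and Elovl6 (0.058) missed the threshold.

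Idi1 and Pmvk, not called in this comparison (adjusted p = 0.21 and 0.065), passed with the library number as a block (0.021 and 0.031). With libraries scaled to equal totals 7 genes were higher and 0 lower, beside 1939 and 742 of all genes. Ebp then lost its call (0.18), and 72.3% of calls over all genes were higher in place of 47.1%. For the average over stimuli that share was 60.3% in place of 44.8%.

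**Figure D5:**
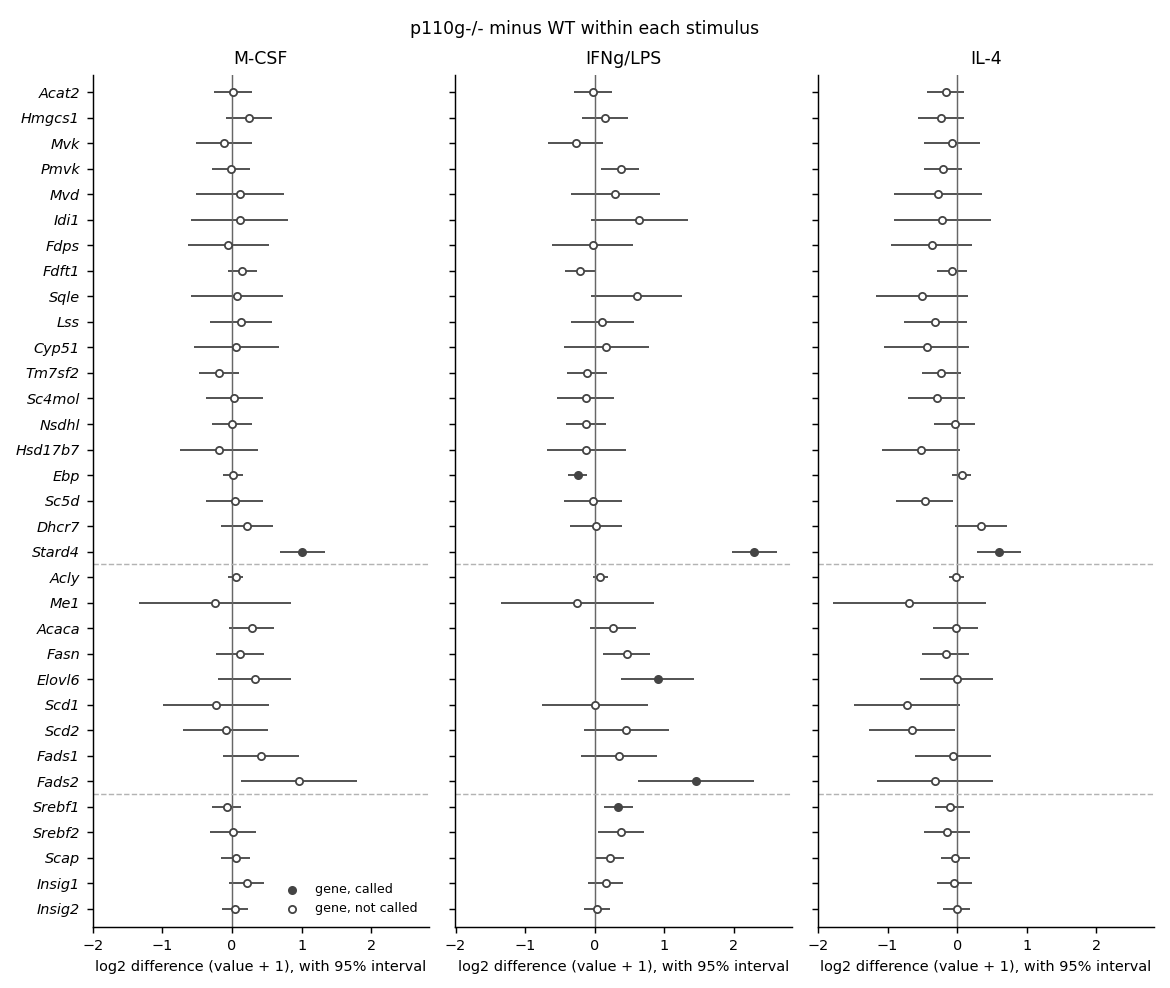
Log2 difference between p110g-/- and WT for each of the 33 genes under M-CSF, IFNg/LPS and IL-4, with 95% intervals and filled points for genes called. Stard4 has the highest value under each stimulus, at 1.01, 2.29 and 0.60, and with IL-4 all but 3 of the genes lie below 0.

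The size of the Stard4 difference itself depended on the stimulus. Its response to IFNg/LPS was log2 -2.40 in WT and -1.12 in p110g-/-, an interaction of 1.285 (SE 0.21, 95% interval 0.83 to 1.74, adjusted p = 0.0051), higher than 0 in all 12 fits that left out 1 library (adjusted p = 0.0033 to 0.019). It was the 1 member called higher, beside 1.02% of all genes, and 0 were called lower, beside 1.42%; 18 of the 33 values were above 0. With libraries scaled to equal totals 71.7% of these calls over all genes were higher, in place of 41.7%, and the median of all genes was 0.11. The interaction is computed from the same M-CSF libraries as the responses above.

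For IL-4 no gene at all passed the test of the interaction (0% of all genes higher and 0% lower). Of the 33 genes 3 had a positive and 30 a negative interaction, a more positive difference in WT, with a median of -0.31, against -0.001 over all genes, where 7755 of 15627 had a positive value. The lowest were Fads2 (log2 -1.28, adjusted p = 0.61) and Sqle (-0.58, adjusted p = 0.88). By limma 1156 genes (7.40%) had an unadjusted p under 0.05, 2 of them members, Fads2 and Hmgcs1; edgeR called 0 genes and DESeq2 called 77, of which 0 were members. Library 1 lay above the others in most members, which are not independent of each other, and a signed count over them has no test here.

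Because library 1 stood apart, the genotype comparisons were also fitted on libraries 2 and 3 alone, 15522 genes with 6 residual degrees of freedom. That choice was made on the values of these same members, so the calls of fits on libraries 2 and 3 depend on it. They give no separate support. With IL-4 12 members were then lower in p110g-/- and 2 higher, beside 8.42% and 6.34% of all genes. The lower ones were Scd1 (log2 -0.96, adjusted p = 0.0061), Me1 (-0.93, 0.011), Scd2 (-0.86, 0.041), Fads2 (-0.79, 0.043), Sqle (-0.65, 0.00038), Hsd17b7 (-0.65, 0.0049), Cyp51 (-0.58, 0.0011), Sc5d (-0.57, 0.0007), Fdps (-0.42, 0.036), Lss (-0.38, 0.017), Sc4mol (-0.34, 0.0055) and Hmgcs1 (-0.24, 0.049). The higher ones were Stard4 (0.59, 0.00072) and Dhcr7 (0.43, 0.01). Sqle, for example, was at 3854 and 3528 in WT and at 2241 and 2453 in p110g-/- in those libraries, whereas library 1 had 5112 and 4461.

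The interaction with IL-4 in that fit was lower for 5 members, Fads2 (log2 -1.44), Sc5d (-0.61), Sqle (-0.60), Cyp51 (-0.55, adjusted p = 0.043) and Fads1 (-0.53), and higher for 0, beside 1.65% and 0.857% of all genes. With IFNg/LPS 12 members were higher and 4 lower, beside 12.6% and 14.2% of all genes, with Stard4 at log2 2.33, Fads2 at 1.79 and Elovl6 at 1.12. The interaction with IFNg/LPS was higher for 6 members and lower for 2, beside 4.87% and 6.13%, Stard4 being at 1.24 (adjusted p = 0.00012). These fits have 2 libraries per group, and their calls are set out as values that differ from those over all 3. Under M-CSF 2 members were higher, Stard4 (1.08) and Fads1 (0.34), and 0 lower, beside 2.44% and 1.99% of all genes, and averaged over the stimuli 4 were higher and 6 lower, beside 10.2% and 12.6%.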

How the data were processed

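The deposited values are a normalised signal per gene, scaled for depth by the authors with DESeq; per the submitters' processing notes, CASAVA 1.8.2, Bowtie2 and the mm9 build were also used. How reads were counted, with which annotation and whether by strand, is not given in the sources used here. The members and all gene lists were chosen with earlier results of these data known.

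The signal values of each library are whole multiples of the value of 1 read (100% of values within 0.1 reads), which gave the depth of each library. The main test was limma 3.58.1 (R 4.3.3) with trended, robust variances on log2(signal + 1), in 1 fit of 18 libraries with 12 residual degrees of freedom, over 15627 genes with a signal of at least 10 in at least 3 libraries. P-values were adjusted by Benjamini-Hochberg over all genes in each of 10 comparisons, with a threshold of 0.05. Fold changes understate the change of low genes. Alternatives were pseudocounts of 0.5 and 10, a minimum of 50 or none, other variance settings, other scalings, edgeR 4.0.16 (quasi-likelihood) and DESeq2 1.42.0 on the recovered reads, the library number as a block, libraries 2 and 3 alone, the compared groups alone, and omission of each library. Read floors cover counting error only.

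All 33 members were named, and for each of 4 lists of other pathway genes the 4 with the smallest p. Same-numbered libraries deviated together with every correlation over 0.1 in the IFNg/LPS and IL-4 responses of WT (0.162 to 0.256 and 0.179 to 0.458), the IL-4 response of p110g-/- (0.187 to 0.397) and the genotypes under IFNg/LPS (0.256 to 0.546), but not for the groups of the other simple comparisons; blocked values stand beside those results where they change a call. The fits were tested on simulated data with known changes. Some items are not reported here.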

Additional observations from a re-analysis of the deposited data

Results flagged for a closer look

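The response of Stard4 to IFNg/LPS differed between the genotypes by a test of the difference itself. The interaction was 1.285 on the log2 scale (SE 0.21, adjusted p = 0.0051 by limma), from a fall of log2 -2.40 in WT, where the 3 libraries went from 478.5 to 783 down to 107 to 114, and of log2 -1.12 in p110g-/-, where they went from 1050 to 1421 down to 511 to 583. The library labelled p110g-/- IFNg/LPS 1, whose Pik3cg is above that of the WT libraries, had 536, between the other 2.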

How the results depend on the processing

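Each group has 3 libraries, and the lowest IFNg/LPS values of Elovl6 and Fads2 rest on as few as 6 and 7 reads; the genotype calls of both there are lost by edgeR. Scaling to equal totals gave 29 called members in the IFNg/LPS response of WT in place of 19. Over all genes 3147 were then called higher and 8923 lower in that response, in place of 5676 and 5862. There Acly turned lower (adjusted p = 3.2e-07), as it did in p110g-/- (1.4e-05), and Srebf1 changed sign in p110g-/- (0.33). With libraries 2 and 3 only, Hsd17b7 changed sign in the IFNg/LPS response of p110g-/- (0.046), and called members numbered 2 in place of 1 for the genotype under M-CSF, 16 (12 higher, 4 lower) in place of 5 under IFNg/LPS, 14 (2 higher, 12 lower) in place of 1 under IL-4, 10 (4 higher, 6 lower, beside 10.2% and 12.6% of all genes) in place of 1 averaged over stimuli, 8 (6 higher, 2 lower) in place of 1 for the interaction with IFNg/LPS and 5 (all lower) in place of 0 for that with IL-4. The genotype count under IFNg/LPS was 3 by edgeR, beside 2192 of all genes in place of 2303, and 2 when only the compared libraries were fitted. Under IL-4 it was 0 without trended and robust variances. Averaged over stimuli it was 3 by DESeq2, beside 2361 of all genes in place of 1846. Calls over all genes were not counted for the compared libraries alone or without trended and robust variances. The cause of these differences was not tested.

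Leaving out 1 library gave 18 to 20 called members for IFNg/LPS in WT, 18 to 22 in p110g-/-, 25 to 28 for IL-4 in WT, 20 to 26 in p110g-/-, 2 to 5 for the genotype under IFNg/LPS, 0 to 1 under IL-4, 1 to 2 averaged over stimuli and 1 to 2 for the interaction with IFNg/LPS. Calls over all genes in these omissions were not counted.

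With the replicate block the genotype count was 2 under IL-4 (Cyp51 added, adjusted p = 0.049 by limma), beside 763 of all genes in place of 520. Averaged over stimuli it was 2 (Fads2 added, 0.049), beside 2459 of all genes in place of 1846. The block ended no call of a member. Over all genes the calls were 555 with the block and 673 by DESeq2 in place of 365 for the genotype under M-CSF, 921 by DESeq2 in place of 520 under IL-4, 716 and 892 in place of 381 for the interaction with IFNg/LPS, and 8 and 77 in place of 0 for that with IL-4.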

Other observations

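Genes around the synthesis branches were taken in 4 lists chosen by name. With IFNg/LPS in WT, where 36.3% of all genes rose and 37.5% fell, of 22 other fatty acid enzymes and cofactor genes 9 rose and 9 fell, with the acyl-CoA synthetase Acsl1 at 2776, 2133 and 2427 in M-CSF and 45775, 68390 and 71479 with the stimulus (log2 4.64, adjusted p = 8e-13 by limma) and another, Acsl3, falling (log2 -2.80), as did the phosphatidate phosphatase Lpin1 (-4.26). Of 10 other sterol and isoprenoid enzymes 3 rose and 7 fell, led by Lbr (log2 -1.27) and Acat1 (-1.14). Of 10 genes of SREBP processing and turnover 5 rose and 3 fell, the proteases Mbtps1 (log2 -1.66) and Mbtps2 (-0.87) falling and the ubiquitin ligase Rnf139 rising (1.06). Of 13 genes of cholesterol storage, transport and LXR 6 rose and 5 fell, and Ch25h, which makes 25-hydroxycholesterol, had the highest value (log2 7.21, adjusted p = 7.4e-09). Each of these named differences is larger than the shift of the median of all genes with libraries scaled to equal totals (log2 -0.51).

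In p110g-/-, with 36.2% and 36.8% of all genes, the same lists, in the order given, had 10 rising and 10 falling, 3 and 5, 4 and 3, and 4 and 6. With IL-4 in WT, where 22.9% of all genes rose and 21.1% fell, 9 of the 22 fatty acid genes rose and 4 fell, 5 of 10 sterol and isoprenoid enzymes rose and 2 fell, 1 of 10 SREBP processing genes rose and 2 fell, and 1 of 13 transport genes rose and 5 fell. Among them the cytochrome b5 gene Cyb5b rose (log2 1.05) as did the cytochrome b5 reductase Cyb5r3 (0.60), and the cytochrome P450 reductase Por fell (-1.13), while Apoe, a lipid carrier, fell (-1.88) and the sterol exporter Abcg1 rose (0.66). In p110g-/- the IL-4 counts, in the same order, were 5 and 4, 6 and 1, 1 and 3, and 3 and 4, beside 22.7% and 21.2% of all genes.

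Between genotypes, under M-CSF 1 of the 22 fatty acid genes was higher and 1 lower in p110g-/-, and 0 of the other 3 lists (1.06% and 1.27% of all genes). With IFNg/LPS 4 of the 22 were higher and 2 lower, and 1 sterol enzyme and 1 transport gene were lower (6.94% and 7.79%). With IL-4 2 of the 22 were lower and 1 transport gene was higher (1.34% and 1.99%). Lpin1 was lower in p110g-/- under M-CSF (log2 -1.06, adjusted p = 0.0071) and IL-4 (-1, 0.0094), and Tecr, a reductase of chain elongation, was higher under M-CSF (0.41, 0.0074) and IFNg/LPS (0.29, 0.021). Ptplad1, a dehydratase of the elongation cycle, was higher with IFNg/LPS (1.15, 3.8e-05), with an interaction of 0.96 (0.013). Also with IFNg/LPS, Acsl1 was higher (0.57, 0.019), and Por (-0.41, 0.017) and Oxsm (-0.22, 0.03) were lower, and with IL-4 Acsl4 was lower (-0.35, 0.015). Averaged over the stimuli Erlin2 (0.13, 0.02) and Rnf145 (0.23, 0.021), of the SREBP turnover list, were higher. Nr1h3, which encodes the sterol receptor LXR alpha, was lower with IFNg/LPS (-0.46, 0.028) and higher with IL-4 (0.68, 0.0073), and its interaction with IFNg/LPS was -0.81 (0.032). The directions with IFNg/LPS include the library labelled p110g-/- IFNg/LPS 1.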
